A study of Mus musculus with 7 samples.

Results

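The insulin-like growth factor (IGF) axis was examined in RNA sequencing libraries of mouse shoulder joints as 10 genes: the ligands Igf1 and Igf2, the receptor gene Igf1r, the adaptor gene Irs1 and the binding protein genes Igfbp2 to Igfbp7. The members were taken from a list of symbols and matched by symbol and Ensembl identifier, and all 10 were among the 56854 identifiers listed in every file. In each of 7 mice, the whole shoulder joint was taken 2 weeks after the supraspinatus tendon, a tendon of the rotator cuff, had been repaired surgically on the left side. There were 3 wild-type mice and 4 mice labelled Tnc-/-, for the gene of Tenascin C, a glycoprotein of the wound matrix. Repair and time were the same for both groups, and no unoperated joint was included here. Strain, age, sex and the cell types that carry the deletion are not given in the sources used here.

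IGF1 and IGF2 are small secreted hormones that bind the IGF1 receptor, a tyrosine kinase. The activated receptor phosphorylates docking proteins such as IRS1, which recruit PI3-kinase and so switch on Akt and mTOR. Outside the cell, a family of binding proteins holds most IGF, prolongs its life and limits its access to the receptor until proteases release it. IGF1 is known as a growth factor for tenocytes and for regenerating muscle, and fibroblasts, macrophages and muscle all make it.

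Gene counts came to 13464057 to 18503833 in the wild-type libraries and to 19250322 to 28191101 in Tnc-/-. The libraries were not equally alike, and the difference touches several values below. The summed level of 2026 receptor genes of smell and pheromone sensing, which a joint is not known to use (the receptor background), was 89.1, 1399 and 982 CPM (the usual per-library scaling of counts, with TMM-adjusted totals) in wild-type libraries 1, 2 and 3. In Tnc-/- it was 36.5 to 43.9 CPM. Wild-type library 1 thus lay near the Tnc-/- libraries and wild-type libraries 2 and 3 stood apart. The targeted gene followed the labels: Tnc averaged 352 ± 75.5 (wild type, SD, n = 3) and 41.8 ± 9.26 CPM (Tnc-/-, SD, n = 4). Tnc counts of 698 to 1051 thus remained in the Tnc-/- libraries, and a count per gene does not show whether they come from outside a deleted part. Markers of muscle, tendon, cartilage, bone, fat, vessels, macrophages and marrow were present in all 7 libraries, while 4 of the 72 markers, Scx, Chad, Alas2 and Flg2, were listed at 0 counts throughout. The files of the genotypes list different identifiers, so they come from different counting runs, and genotype cannot be told apart from run.

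Of the 10 members, 9 had enough counts to be tested between the genotypes, and 2 passed the threshold of an adjusted p of 0.05 (edgeR). Irs1 was higher in Tnc-/- and Igfbp2 was lower. Among all 17791 genes tested, 29.0% passed, 10.3% higher and 18.7% lower, and the members' share was not above that background. Scaling by library totals moved the median of all genes to -0.22 and the split of calls to 992 higher and 4410 lower, from 1830 and 3329. With that scaling 5 members passed, Irs1 higher and 4 lower (Igf1, Igf1r, Igfbp2 and Igfbp3). Members whose groups did not overlap numbered 2 of 9, both higher in Tnc-/-, against 17.7% of all genes above, 17.4% below and 35.1% in either direction. That separation depended on the scaling: with library totals Irs1 alone lay above wild type, Igf1 and Igfbp3 lay below without overlap, and Igfbp5 overlapped, against 34.4% of all genes apart in either direction. At an unadjusted p under 0.05 there were 4 of 9, against 42.3% of all genes (edgeR). The median log2 fold change of the 9 members was -0.022, beside -9.0e-04 over all genes. The Igfbp2 call rested on wild-type libraries 2 and 3, and the Irs1 exons overlap an identifier counted in the wild-type run alone.

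**Figure D1:**
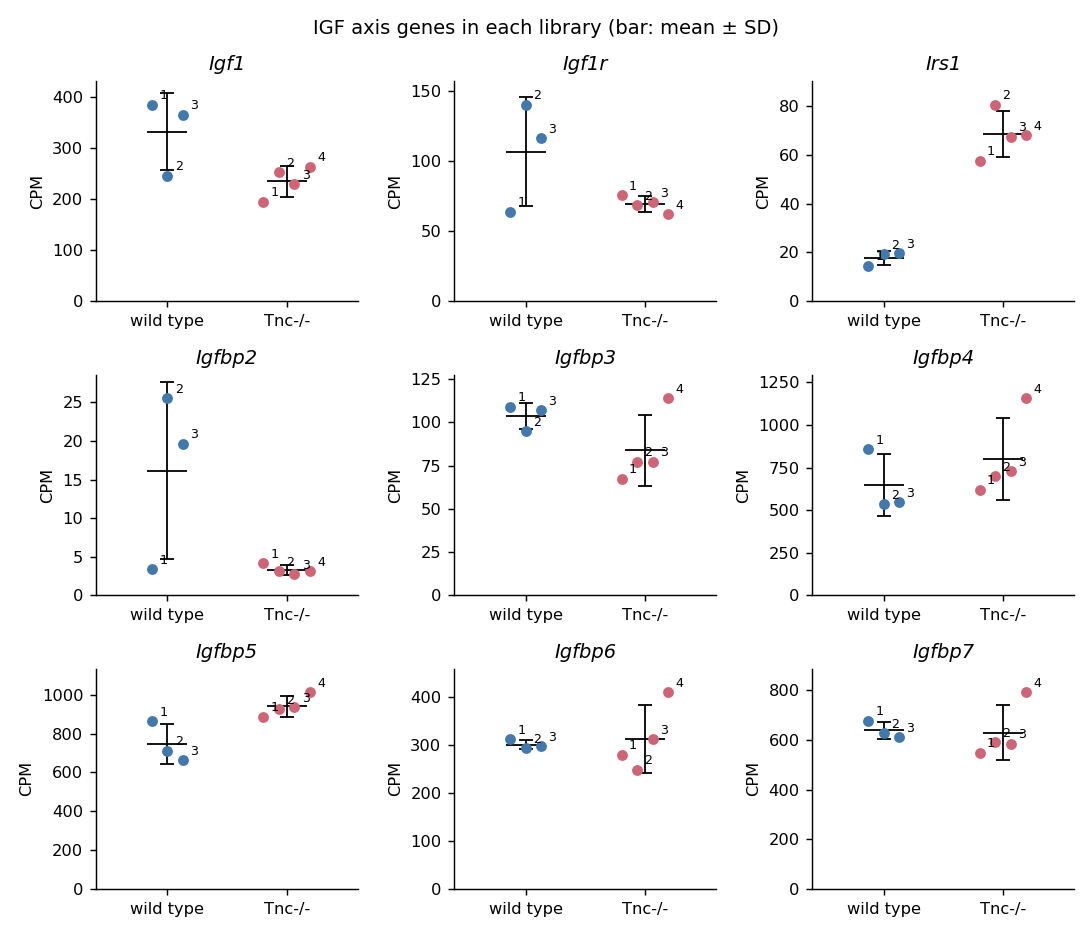
Normalised level (CPM, vertical axes from 0) of the 9 members with counts in each library; blue points are wild type, red points Tnc-/-, numbers are replicate numbers, and bars give the mean ± SD. Igf1r and Igfbp2 were high in wild-type libraries 2 and 3 only, Irs1 was separated between the groups, and Tnc-/- library 4 was highest of its group for Igfbp3 to Igfbp7.

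The ligand Igf1 measured 385, 246 and 366 CPM in the wild-type mice, in library order, and 195, 252, 229.9 and 264 CPM in the Tnc-/- mice. Wild-type libraries 1 and 3 lay above every Tnc-/- library, and wild-type library 2 lay among them, so the groups overlapped. Mean levels were 332 ± 75.4 (wild type, SD, n = 3) and 235 ± 30.2 CPM (Tnc-/-, SD, n = 4). The log2 fold change was -0.50 (SE 0.19; 95% interval -0.93 to -0.064), which did not pass the threshold (edgeR, adjusted p = 0.0802). Without wild-type library 2 it was -0.67 and passed (adjusted p = 0.0352), and without wild-type library 1 it was -0.29 (adjusted p = 0.182). Leaving out wild-type libraries 2 and 3 together gave a difference in the same direction, -0.72, and so did the receptor background as a covariate, at -0.88 (adjusted p = 0.111). In bulk tissue, fewer cells of a type and less RNA per cell cannot be told apart. Macrophage markers, 6 genes of which none was called, summed to 457 to 757 CPM in wild type and 644 to 773 CPM in Tnc-/-, and their part in the Igf1 level was not tested.

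Igf2, the fetal growth ligand that most tissues silence after birth, had 0 counts in all 7 libraries. A count of 0 allows at most 0.111 to 0.199 CPM, the level of 3 counts per library, which covers counting error only. This 0 is uncertain as a measure of expression. In GENCODE M21, 62.8% of the Igf2 exon bases are shared with Gm49394, a gene model on the same strand, and Gm49394 was also listed at 0 in every library. Reads in shared exons cannot be assigned to either gene by a counter that drops ambiguous reads. In the Tnc-/- files, 11.4 to 11.6% of all listed reads were in the row for ambiguous reads, and no such row is in the wild-type files. The Igf2 exon bases outside the shared part gave no counts either. Scx and, of the wider pathway, Htra1 were also at 0 in every library. Neither shares exon bases with another gene model in GENCODE M21. What lies behind these zeros was not tested. H19, the imprinted noncoding RNA beside Igf2, was detected at 386 CPM in wild type and 488 CPM in Tnc-/- on average, with overlapping groups (adjusted p = 0.357, edgeR).

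The receptor gene Igf1r measured 63.9, 140.4 and 116 CPM in the wild-type mice, in library order, and 75.7, 68.5, 70.8 and 62.3 CPM in the Tnc-/- mice. Wild-type library 1 lay within the range of Tnc-/-, whereas libraries 2 and 3 lay above all others. The log2 fold change was -0.62 (SE 0.24; 95% interval -1.16 to -0.089) and did not pass the threshold (edgeR, adjusted p = 0.0767). Without wild-type library 1 it was -0.79 and passed (adjusted p = 2.0e-04), and without wild-type library 2 it was -0.37 (adjusted p = 0.272). Without wild-type libraries 2 and 3 it turned to 0.11 (adjusted p = 0.703), and with the receptor background as a covariate to 0.44 (adjusted p = 0.270). Igf1r spans 281 kb, and among all genes spanning 100 to 300 kb, 44.7% were called lower in Tnc-/-, with a median log2 fold change of -0.69. Over those genes wild-type libraries 2 and 3 exceeded library 1 by a median of 0.95 log2 units, and for Igf1r the excess was 1.01.

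**Figure D2:**
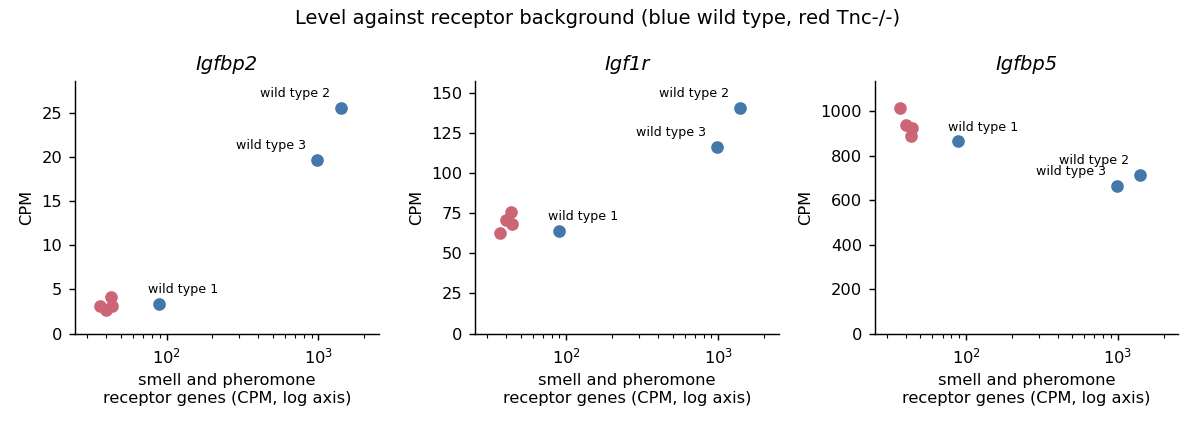
Level of Igfbp2, Igf1r and Igfbp5 (CPM, vertical axes from 0) against the summed level of smell and pheromone receptor genes (CPM, log axis), 1 point per library. Igfbp2 and Igf1r were high where the receptor sum was high, in wild-type libraries 2 and 3, and wild-type library 1 sat at the Tnc-/- level; Igfbp5 was lowest in those same libraries.

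Irs1, which docks PI3-kinase at the activated receptor, measured 14.5, 19.3 and 19.8 CPM in the wild-type mice, from 271, 291 and 326 counts. In Tnc-/- libraries 1 to 4 it was at 57.5, 80.6, 67.5 and 68.1 CPM, from 1556, 1446, 1205 and 1301 counts. Every Tnc-/- library lay above every wild-type library, with a gap wider than the spread within either group. Mean levels were 17.9 ± 2.91 (wild type, SD, n = 3) and 68.4 ± 9.43 CPM (Tnc-/-, SD, n = 4), a fitted 3.82-fold difference. This is a log2 fold change of 1.93 (SE 0.18; 95% interval 1.54 to 2.33; edgeR, adjusted p = 0.00171). It was 2.35 with the receptor background as a covariate (edgeR, adjusted p = 0.00301), where 2.28% of all genes passed. The call held in 20 of 20 alternatives that could be fitted for Irs1, with log2 fold changes from 1.70 to 2.35. Each of these alternatives used the same deposited counts, so none bears on the difference in annotation described below. Some of them differ only in the p adjustment. Irs1 spans 58.3 kb, and 8.58% of all genes spanning 30 to 100 kb were called higher.

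Irs1 was not counted under the same annotation in both runs, so for this gene the genotype and the counting cannot be told apart. In GENCODE M21 the single exon of Gm9747, a gene model of 2822 bases on the opposite strand, lies wholly inside Irs1. It covers 62.7% of the last Irs1 exon, which holds the 3′ untranslated region, and 30.9% of all Irs1 exon bases. Gm9747 is listed in the wild-type files, with 0 counts in each, and is not listed in the Tnc-/- files. Whether the counting used strand is not stated, and how many reads fell in the shared stretch is not given by a count per gene. Among 45 tested genes that share exon bases with an identifier of the wild-type files alone, 27 (60.0%) were called higher in Tnc-/- and 4 (8.89%) lower. Among the 15 that share at least 20% of their exon bases, 13 (86.7%) were called higher and 0 lower. Irs1 is 1 of these 13.

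**Figure D3:**
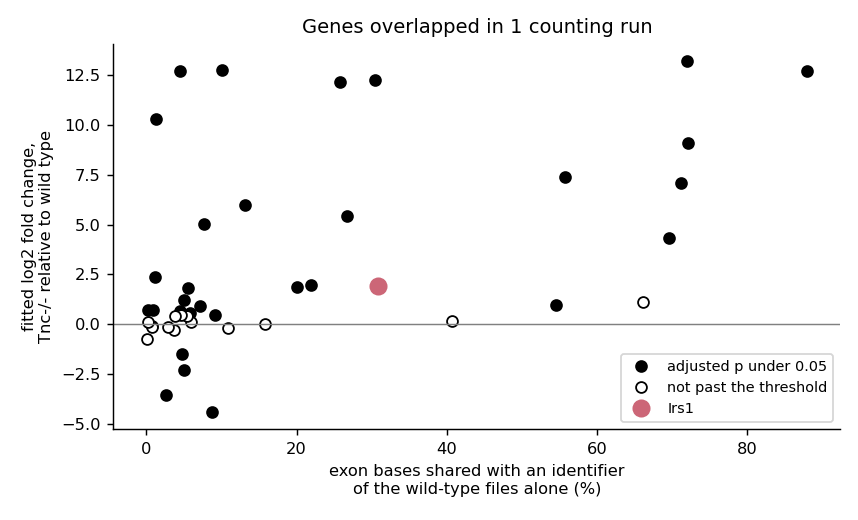
Fitted log2 fold change of 45 genes (vertical axis, Tnc-/- relative to wild type) against the share of their exon bases in common with an identifier listed in the wild-type files alone (horizontal axis, %). Filled points passed the threshold, open points did not, and the red point is Irs1 at 30.9% and 1.93; values of genes without wild-type counts depend on the prior count of the fit.

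The binding proteins were the most abundant part of the axis. Compared per length of exon in GENCODE M21, Igfbp7 had the highest level, 528 ± 28.9 CPM per kb in wild type (SD, n = 3) and 519.8 ± 91.2 CPM per kb in Tnc-/- (SD, n = 4). Igfbp6 followed at 271 and 281 CPM per kb, then Igfbp4 at 147 and 181 and Igfbp5 at 124 and 157. Igfbp3 was at 33.1 and 26.8 CPM per kb, level with the ligand Igf1 at 33.5 and 23.7. In wild type and Tnc-/-, Igf1r was at 6.37 and 4.13 CPM per kb, Irs1 at 1.96 and 7.48 and Igfbp2 at 8.75 and 1.76. Ranges over libraries were apart in both genotypes between Igfbp7 and Igfbp6 and between Igfbp5 and Igfbp3. They overlapped in both genotypes between Igfbp4 and Igfbp5 and between Igfbp3 and Igf1. Igfbp6 and Igfbp4 were apart in wild type and overlapped in Tnc-/-.

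**Figure D4:**
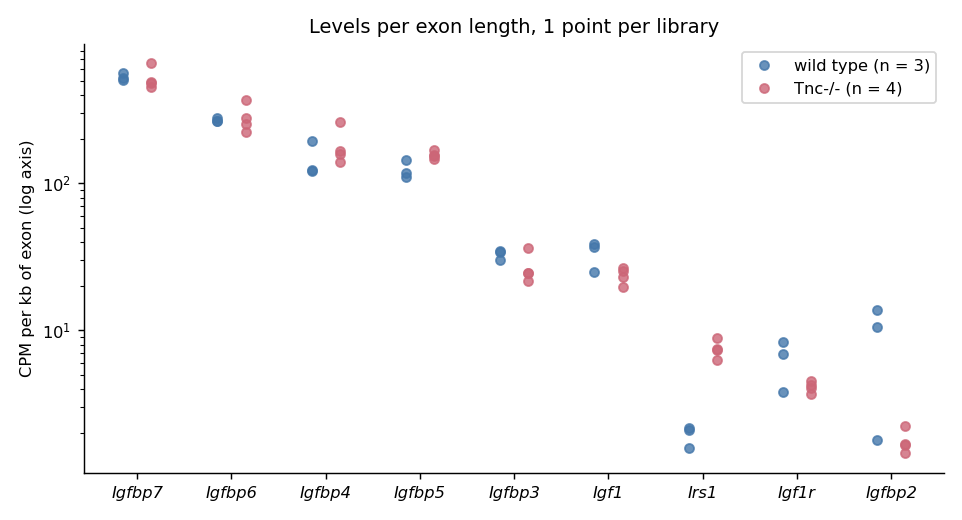
Level per exon length (CPM per kb, log axis) of the 9 members with counts, ordered by their mean over libraries, 1 point per library, blue wild type and red Tnc-/-. Igfbp7 and Igfbp6 lead in both genotypes, and Irs1, Igf1r and Igfbp2 are lowest.

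Summed per length, the 6 binding proteins were at 1216, 1067 and 1052 CPM per kb in wild type and at 1017, 1050.0, 1111 and 1492 CPM per kb in Tnc-/-. The sum was 31.3, 43.0 and 28.5 times the Igf1 level in wild-type libraries 1 to 3, and 51.7, 41.2, 47.8 and 56.1 times in Tnc-/- libraries 1 to 4. These ratios overlapped through wild-type library 2 and Tnc-/- library 2. Igfbp7 made up 47.5 ± 1.31% of the sum in wild type (SD, n = 3) and 44.6 ± 1.32% in Tnc-/- (SD, n = 4), and Igfbp6 24.5 ± 1.23% and 24.01 ± 1.83%. Igfbp5 made up 10.5 to 11.8% in wild type and 11.3 to 14.7% in Tnc-/-. Igfbp3 made up 2.84 to 3.25% in wild type and 2.12 to 2.44% in Tnc-/-, without overlap. These shares describe the mixture of messages, not of proteins, and no test was applied to them.

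Igfbp2 and Igfbp5 are neighbours on chromosome 1, and their levels moved apart between the libraries. Sequence just upstream of their starts is shown because the pair shares a locus but not a pattern, together with that of Igfbp4, the binding protein gene nearest to Igfbp5 in level. Sequences are from RefSeq (GRCm38.p6), in which all 10 members had an entry with 14 start sites in all; each runs over the 120 bases before a start, 5′ to 3′ on the gene's strand. The submitters' processing notes name GRCm39, so these positions may not be those of the build behind the count tables. Capitals mark GGGCGG (a GC box) or TATAAA on either strand.
Igfbp2, chr1:72824360-72824479, plus strand: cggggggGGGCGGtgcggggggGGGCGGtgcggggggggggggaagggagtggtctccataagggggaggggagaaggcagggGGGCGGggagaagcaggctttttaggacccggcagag
Igfbp5, chr1:72874866-72874985, minus strand: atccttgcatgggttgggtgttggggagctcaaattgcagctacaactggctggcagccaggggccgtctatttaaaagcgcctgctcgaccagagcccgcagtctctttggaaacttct
Igfbp4, chr11:99041124-99041243, plus strand: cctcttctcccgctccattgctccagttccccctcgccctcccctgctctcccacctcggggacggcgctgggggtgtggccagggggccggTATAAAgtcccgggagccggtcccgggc
RefSeq lists 2 starts for Igfbp2, of which the first is shown. That Igfbp2 window held GGGCGG 3 times and the second held neither hexamer. TATAAA was in the Igfbp4 window 1 time, and the Igfbp5 window held neither. Of 32851 such windows in the table, 26.5% held GGGCGG and 6.34% held TATAAA on either strand; of the 14 windows of members, 5 and 1 did. A match is a string of letters and not a measured site.

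Igfbp2, a binding protein that prefers IGF2, measured 3.33, 25.5 and 19.6 CPM in the wild-type mice, in library order, and 4.14, 3.12, 2.69 and 3.09 CPM in the Tnc-/- mice. Wild-type library 1 lay within the range of Tnc-/-, and only wild-type libraries 2 and 3 were high. Fitted over all libraries, the log2 fold change was -2.30 (SE 0.59; 95% interval -3.64 to -0.97) and passed the threshold (edgeR, adjusted p = 0.0209). Without wild-type libraries 2 and 3 it was -0.029 (adjusted p = 0.973), and with the receptor background as a covariate 0.81 (adjusted p = 0.359). The call was also lost without wild-type library 2 (adjusted p = 0.0804), wild-type library 3 (0.0824) or any of Tnc-/- libraries 1 to 4 (0.0500 to 0.0676), while the log2 fold change stayed at -1.81, -2.13 and -2.46 to -2.23. Without wild-type library 1 it was -2.69. Igfbp2 spans 28.0 kb, and 9.72% of all genes spanning 10 to 30 kb were called lower.

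Igfbp5, which binds matrix as well as IGF, measured 864, 712 and 663 CPM in the wild-type mice, in library order, and 887, 926, 936 and 1013 CPM in the Tnc-/- mice. The Tnc-/- range began above the highest wild-type library, the nearest pair being wild-type library 1 and Tnc-/- library 1. Mean levels were 746 ± 105 (wild type, SD, n = 3) and 941 ± 52.9 CPM (Tnc-/-, SD, n = 4). The log2 fold change of 0.33 (SE 0.16; 95% interval -0.034 to 0.70) did not pass the threshold (edgeR, adjusted p = 0.151). It passed without wild-type library 1, at 0.55 (adjusted p = 0.00861), and was 0.029 with the receptor background as a covariate and 0.12 with library totals.

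Igfbp4, a binding protein cleaved by the protease PAPP-A, measured 859, 536 and 547 CPM in the wild-type mice, in library order, and 620.2, 698, 729.7 and 1156 CPM in the Tnc-/- mice. The groups overlapped, and the spread within each was wide. The fitted log2 difference was 0.31 (SE 0.27; 95% interval -0.31 to 0.92; edgeR, adjusted p = 0.422). It passed without wild-type library 1, at 0.66 (adjusted p = 0.0242), and turned to -0.11 without wild-type libraries 2 and 3. Without Tnc-/- library 4 it was 0.074 (adjusted p = 0.844), and without wild-type library 2 or 3 alone it was 0.19 or 0.20.

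Igfbp3, the main carrier of IGF in serum, measured 109, 94.9 and 107 CPM in the wild-type mice, in library order, and 67.4, 77.1, 77.2 and 114 CPM in the Tnc-/- mice. Tnc-/- libraries 1 to 3 lay below every wild-type library and Tnc-/- library 4 above them all. On the log2 scale the fitted difference was -0.31 (SE 0.18; 95% interval -0.72 to 0.11; edgeR, adjusted p = 0.239). Without Tnc-/- library 4 it was -0.49 and passed (adjusted p = 0.0427), and without wild-type library 1 it was -0.17 (adjusted p = 0.431). Among genes spanning at most 30 kb it passed at -0.53 (edgeR, adjusted p = 0.0470), as it did at -0.53 with library totals (adjusted p = 0.0463). In all, Igfbp3 passed in 3 of 22 alternatives.

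Igfbp6, which also prefers IGF2, was at 312, 294 and 298 CPM in wild type and at 280.1, 248.7, 312 and 411 CPM in Tnc-/-. Igfbp7, a more distant relative that binds IGF weakly and is found around vessels, was at 677, 627 and 610.2 CPM in wild type and at 548, 589.8, 584 and 791 CPM in Tnc-/-. In both genes Tnc-/- library 4 was the highest of all 7 and the groups overlapped. The log2 fold change was 0.054 for Igfbp6 (95% interval -0.37 to 0.47; edgeR, adjusted p = 0.853) and -0.022 for Igfbp7 (95% interval -0.42 to 0.37; adjusted p = 0.937). In Igfbp7, 7.03% of the exon bases are shared with Polr2b on the opposite strand, an identifier listed in both runs.

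**Figure D5:**
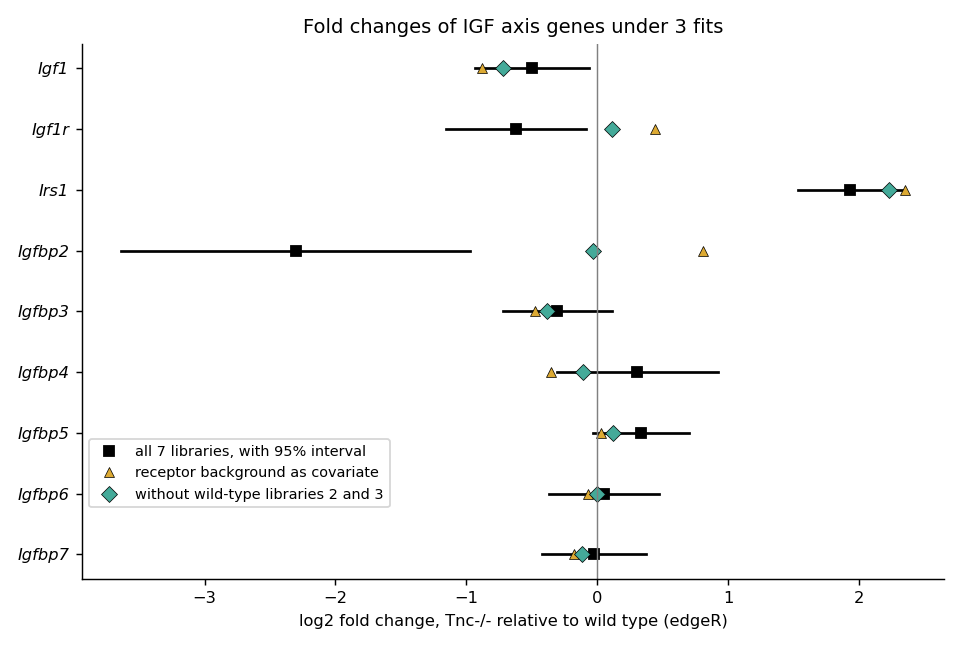
Log2 fold change of the 9 tested members, Tnc-/- relative to wild type (horizontal axis). Squares with 95% intervals use all 7 libraries, triangles add the receptor background as a covariate, and diamonds leave out wild-type libraries 2 and 3. The 3 fits lie close for Igfbp3, Igfbp6 and Igfbp7, while Igf1r, Igfbp2, Igfbp4 and Igfbp5 move toward or past 0.

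Of the 9 tested members, 6 were highest within Tnc-/- in library 4: Igf1 and Igfbp3 to Igfbp7. Of 12 marker lists, 5 were also highest within Tnc-/- in that library and 2, adipocyte and erythroid, were lowest there. The highest included sums of 22079 CPM for fibroblast genes (12605 to 14920 CPM in Tnc-/- libraries 1 to 3), 4632 CPM for tendon genes (2765 to 3402) and 3418 CPM for cartilage genes (1216 to 2359). In wild type these sums were 11517 to 18870.5, 2808 to 3624 and 1370.0 to 2329 CPM. Of the 6 genes in each list, 1 fibroblast marker was called higher and 1 lower, 1 tendon marker lower and no cartilage marker, with Scx and Chad at 0. The part of the tissue mixture in the levels of these members was not tested. Skeletal muscle markers summed to 18855 to 24900 CPM in wild type and 27095 to 40007 CPM in Tnc-/-, without overlap, and 2 of 6 were called higher. The marrow lists did not overlap either: myeloid markers summed to 1291 to 2762 CPM in wild type and 3092 to 5439 CPM in Tnc-/- (4 of 6 called higher). Erythroid markers summed to 242 to 648 and 798 to 1636 CPM (2 of 5 tested called higher). Over all single genes, 10.3% were called higher, and 17.7% had every Tnc-/- library above every wild-type library.

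The wider pathway was described by 50 further genes, of which 45 were tested; 8 were called higher and 6 lower in Tnc-/-, beside 10.3% and 18.7% of all genes. That balance depended on the scaling, with 3 higher and 15 lower under library totals, 5 and 8 under upper-quartile scaling and 7 and 7 under DESeq2 size factors. The split over all genes moved in the same direction, from 1830 higher and 3329 lower. In the same order it became 992 and 4410, 1349 and 3556, and 1568 and 3472. Their median log2 fold change was -0.013. At an unadjusted p under 0.05 there were 25 of 45, beside 42.3% of all genes. With the receptor background as a covariate 0 of 45 passed (edgeR), where 2.28% of all genes did, and 5 of 45 were at an unadjusted p under 0.05, beside 18.6%. Without wild-type libraries 2 and 3, 0 of 45 passed, beside 4.45% of all genes, and 11 of 45 were at an unadjusted p under 0.05, beside 24.6%. Calls were thus fewer over all genes as well. With TMM scaling the groups did not overlap in any of the 14 called genes, as in 83.0% of all called genes. Wild-type library 1 was the wild-type library nearest to Tnc-/- in all 14, as in 89.2% of all called genes.

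The 6 genes that were lower included those for the proteases PAPP-A and PAPP-A2, which cut binding proteins to free IGF. Pappa measured 13.04, 46.7 and 32.6 CPM in the wild-type mice, in library order, and 5.91 to 9.57 CPM in Tnc-/- (log2 fold change -1.88, SE 0.39; edgeR, adjusted p = 0.0105). Pappa2 was at 4.72, 43.7 and 24.7 CPM in wild type and at 1.62 to 4.11 CPM in Tnc-/- (-3.10, adjusted p = 0.011). In both, most of the wild-type level came from libraries 2 and 3. The RNA-binding protein genes Igf2bp2 (-1.96) and Igf2bp3 (-3.50), the binding protein receptor gene Tmem219 (-1.26) and the transcription factor gene Foxo1 (-0.55) were also lower. Of these 6 genes, 4 span more than 100 kb. All 6 passed under each of the 3 other scalings. With the receptor background as a covariate none passed, and the differences shrank or turned, to -0.11 for Pappa, 0.17 for Pappa2, -0.21 for Tmem219, 0.055 for Foxo1 and 0.38 for Igf2bp3, while Igf2bp2 was near 0.

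The 8 genes that were higher included Lrp1, an endocytic receptor that binds IGFBP3 (0.79, adjusted p = 0.0207, edgeR). Ptpn1, a phosphatase that switches off insulin and IGF1 receptors, measured 80.02, 47.6 and 49.99 CPM in the wild-type mice and 95.2 to 122 CPM in Tnc-/- (0.87, SE 0.20; adjusted p = 0.0146). The adaptor genes Grb2 (0.60) and Sh2b2 (0.69), Tsc2 (0.67) and Mtor (0.43) of the mTOR arm, and Stat5a (0.53) and Stat5b (0.43), which relay growth hormone, were higher by less. None of the 8 changed sign under the other scalings, but with library totals only Lrp1, Grb2 and Ptpn1 passed. With the receptor background as a covariate none passed and the 8 ranged from 0.038 (Tsc2) to 0.60 (Sh2b2), with Ptpn1 at 0.21, Stat5a at 0.17 and Lrp1 at 0.36. None of the PI3-kinase subunit or Akt genes on the list passed the threshold.

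Other genes named whatever their values did not pass. Irs2, the other widely used docking protein, was at 21.3, 23.2 and 28.98 CPM in wild type and at 29.1 to 35.5 CPM in Tnc-/- (log2 fold change 0.36, SE 0.16; edgeR, adjusted p = 0.128). The Irs2 groups were separated by a narrow margin that was lost with library totals (21.5 to 32.8 and 26.8 to 32.9 CPM), and 2.56% of its exon bases are shared with another identifier listed in both runs. The insulin receptor gene Insr was at 76.3 to 91.6 CPM in wild type and at 50.5 to 72.9 CPM in Tnc-/- (-0.42, adjusted p = 0.0649), without overlap. Igf2r, which clears IGF2, was at 114 to 171 and 131 to 173 CPM (0.18, adjusted p = 0.469). Ghr, the growth hormone receptor gene, was at 122 to 125 CPM in wild type and at 88.8 to 121 CPM in Tnc-/- (-0.21, adjusted p = 0.273), also without overlap.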

How the data were processed

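Poly(A) RNA of 7 shoulder joints was sequenced, 1 library per mouse, per the labels' protocols. Each deposited file lists raw counts of reads by gene. The submitters' processing notes name FastQC 0.11.9, HISAT2 2.2.1, HTSeq 2.0.2, DESeq2 1.38.3 and GRCm39 without roles; annotation and strand setting are not given in the sources used here. Rows that name no gene, 30.1 to 32.7% of the reads listed for Tnc-/- (0 such rows in wild type), were left out. Identifiers unique to a genotype's files numbered 126 (wild type) and 87 (Tnc-/-).

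Counts were scaled by TMM, filtered by filterByExpr and tested with edgeR 4.0.16 (R 4.3.3), quasi-likelihood F test with robust dispersions, genotype as the 1 term, Benjamini-Hochberg over 17791 genes. CPM use TMM-scaled totals. SE is the fold change divided by the root of F. P-values set the difference between the groups against the spread of libraries within groups. Because genotype coincides with counting run, that difference includes any effect of the run. The edgeR fit was tested on simulated counts with the same dispersion for every gene. The simulation held no split among wild-type libraries and no run effect, so it does not cover these features of the data. Alternatives used DESeq2 1.42.0, limma 3.58.1 voom, other scalings, filters, a receptor background covariate, genes up to 30 kb, a replicate term and left-out libraries; the fits without wild-type libraries 2 and 3, without overlapped genes and with DESeq2 on the filtered genes were added after the data were seen. The first of these assumes that the lone wild-type library varies like the Tnc-/- libraries. Gene spans, exon lengths and overlaps came from GENCODE M21 (GRCm38). The columns left unmapped numbered 0.

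All members are named. Pathway genes are named if past the threshold and averaging 5 CPM or more in either genotype, at most 20, plus Insr, Igf2r, Irs2, Pappa and Ghr; other genes were chosen after their values were seen. Members, lists and rules were chosen with earlier results of these data known.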

Additional observations from a re-analysis of the deposited data

Results flagged for a closer look

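Within Tnc-/-, the level of Igfbp7 in library 4 (791 CPM) stood apart from libraries 1 to 3 (548, 589.8 and 584 CPM). Divided by the range of the group, the distance to its neighbour came to 0.830, just past the 95% critical value of Dixon's test for 4 samples. It was the 1 such value among 9 members tested; chance gives about 1 in 20 for each single test, so 1 among 9 is not unusual.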

How the results depend on the processing

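Over all genes, 5159 calls became 9449 with DESeq2 and its own filter (23714 genes tested), 1949 with DESeq2 and the Bonferroni adjustment that the study names, 22 with edgeR and Bonferroni, 1004 with limma voom (728 higher, 276 lower), 406 with the receptor background as a covariate and 2005 among genes spanning at most 30 kb. They became 2229 to 14113 on leaving out 1 library and 825 without wild-type libraries 2 and 3. In the same order, the 2 members called became 5, 1, 1, 1 and 1. At most 30 kb, 5 members were tested, without Irs1, and the 2 called were Igfbp2 and Igfbp3, both lower. With 1 library left out, 1 to 5 members were called (5 without wild-type library 1). Library totals gave 5 (1 higher, 4 lower), and 1 of 8 was called when overlapped genes, Irs1 among them, were left out. With DESeq2 on the genes edgeR kept, added after the data were seen, 6249 genes, 4 members and 21 pathway genes were called. The 14 pathway genes became 24, 1, 0, 2 and 0, then 1 of 12 tested at most 30 kb and 3 to 29 with 1 library left out. A minimum of 2-fold gave 5 pathway genes and 2 members, beside 3466 of all 17791 genes. Replicate numbers did not pair the samples (r of same-numbered deviations -0.029, 0.073 and -0.014); with a replicate block 1932 genes, 1 member and 2 pathway genes were called, and Igfbp2 was -1.95 (adjusted p = 0.159). Signs turned with the covariate for Igf1r (0.44), Igfbp2 (0.81), Igfbp4 (-0.35) and Igfbp6 (-0.066), and without wild-type libraries 2 and 3 for Igf1r (0.11), Igfbp4 (-0.11) and Igfbp6 (-0.0020). Igfbp6 also turned with library totals (-0.17), upper-quartile scaling (-0.011), at least 10 counts in every library (-0.027), genes to 30 kb (-0.17), the block (-0.11) and without Tnc-/- library 4 (-0.11). Igfbp7 turned with no filter (0.057) and without wild-type library 1 (0.12) or Tnc-/- libraries 1 (0.019), 2 (0.0042) or 3 (0.0098). With 1 library left out, Igfbp6 ranged from -0.11 to 0.17 and Igfbp7 from -0.16 to 0.12. Igf1 passed in 5 of 21 alternatives, Igf1r in 4 of 21, Igfbp3 in 3 of 22 and Igfbp2 in 10 of 22. The cause of these shifts was not tested. The covariate is high in wild-type libraries alone and so takes up part of the genotype. Igfbp2 had 48 to 112 counts in Tnc-/-.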

Other observations

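Igf2os, an antisense gene at the Igf2 locus picked after its values were seen, had 0, 3 and 41 counts in wild-type libraries 1 to 3 and 0 in each Tnc-/- library. Of the pathway genes, Igfbp1, Esm1 and Htra1 were listed at 0 in all 7 libraries. Like that of Igf2, these zeros are uncertain as measures of expression. Igf2bp1 (0.054, 23.6 and 21.4 CPM) and Igfbpl1 (0.21, 9.64 and 4.92 CPM) had counts almost only in wild-type libraries 2 and 3 and did not pass the filter on low counts.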
